A study of Mus musculus with 33 samples.

Results

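The CC chemokines described here are 10 genes of the deposited table, Ccl2, Ccl3, Ccl4, Ccl5, Ccl6, Ccl7, Ccl8, Ccl9, Ccl12 and Ccl22, chosen by symbol out of 48795 genes in all. Each symbol had a single row. They were measured by RNA sequencing in 33 tumours of 20 male FVB mice, grown under the skin of both flanks from Myc-CaP, a prostate cancer line of the same mouse strain. ESK981, an oral inhibitor of several kinases, was given at 15 mg/kg on 5 days a week, and the antibody against PD-1, a checkpoint receptor of T cells, at 200 µg per mouse 3 times a week. Dosing began at 50 mm3 and lasted 3 weeks. The groups were ESK981 with isotype control antibody (8 tumours), the combination of ESK981 and anti-PD-1 (8), anti-PD-1 with oral vehicle (7), and vehicle with isotype control (10), each from 5 mice. Ages are not given here, and all tumours came from a single line, so the groups do not differ in the line they were grown from. Of the 20 mice, 13 gave both tumours, and mouse values are means of the flanks sampled.

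CC chemokines are small secreted proteins with paired cysteines near the amino terminus. They bind G protein-coupled receptors on leukocytes and steer monocytes, macrophages, dendritic cells and T cells into tissues along gradients. In tumours they are known mainly as products of macrophages, activated T cells and NK cells, induced through NF-kB, interferon and cytokine signalling. The members fall into ligands of the monocyte receptor CCR2 (Ccl2, Ccl7 and Ccl12), the related Ccl8, which in mice acts on CCR8, the inflammatory chemokines Ccl3, Ccl4 and Ccl5, which attract T cells, NK cells and macrophages, ligands of CCR1 with myeloid expression (Ccl6 and Ccl9), and Ccl22, a ligand of CCR4.

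On GRCm38, 9 of the 10 genes lay on chromosome 11, and Ccl22 lay on chromosome 8 between positions 94745590 and 94751699. The first cluster on chromosome 11 ran from Ccl2, which starts at 82035571, through Ccl7 and Ccl12 to Ccl8, which ends at 82116799. The second lay 1409 kb further on and ran from Ccl5, which starts at 83525778, through Ccl9, Ccl6 and Ccl3 to Ccl4, which ends at 83664683. Neighbours within a cluster were 8.26 kb (Ccl2 and Ccl7) to 54.8 kb (Ccl6 and Ccl3) apart.

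RefSeq windows of the 250 bases before the gene start (GRCm38.p6) were at hand for 6 of the 10 members, Ccl3, Ccl6, Ccl8, Ccl9, Ccl12 and Ccl22. The first pair of windows shows neighbouring genes of the first cluster. Ccl12 (chr11:82101595-82101844) and Ccl8 (chr11:82114935-82115184) are on the plus strand, and capitals mark TATAAA, the letters of a TATA box, which began 31 bases before the start of Ccl12 and 32 bases before that of Ccl8.
Ccl12: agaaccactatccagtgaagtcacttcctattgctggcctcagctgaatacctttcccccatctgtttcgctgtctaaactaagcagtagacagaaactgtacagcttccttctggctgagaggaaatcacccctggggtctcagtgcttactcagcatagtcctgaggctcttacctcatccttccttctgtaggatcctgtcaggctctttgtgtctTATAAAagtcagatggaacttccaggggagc
Ccl8: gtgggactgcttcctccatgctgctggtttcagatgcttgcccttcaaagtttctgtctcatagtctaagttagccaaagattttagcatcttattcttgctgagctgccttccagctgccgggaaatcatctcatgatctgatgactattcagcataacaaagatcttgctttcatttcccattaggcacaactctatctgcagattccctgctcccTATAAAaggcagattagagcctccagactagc

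The second pair shows Ccl6 (chr11:83593088-83593337) and Ccl9 (chr11:83578637-83578886), adjacent genes of the second cluster on the minus strand, which also varied together between mice. Capitals mark the longest run of letters that both windows hold.
Ccl6: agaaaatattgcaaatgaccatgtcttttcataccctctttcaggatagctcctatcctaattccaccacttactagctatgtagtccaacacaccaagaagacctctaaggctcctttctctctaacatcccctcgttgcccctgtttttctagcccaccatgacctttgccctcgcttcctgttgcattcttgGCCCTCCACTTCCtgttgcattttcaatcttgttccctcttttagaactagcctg
Ccl9: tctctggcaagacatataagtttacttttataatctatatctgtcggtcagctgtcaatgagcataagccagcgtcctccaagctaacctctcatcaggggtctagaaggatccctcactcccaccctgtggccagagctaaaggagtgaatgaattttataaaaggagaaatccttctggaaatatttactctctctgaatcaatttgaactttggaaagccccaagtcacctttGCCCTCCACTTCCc

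The run of 13 bases began 55 bases before the start of Ccl6 and 14 bases before that of Ccl9, and 3 of 32851 mouse windows of this length held it. It was the longest run among the 15 pairs of member windows, of which the next held 10 bases. The letters TATAAA, read on both strands, occurred in 3 of the 6 member windows, those of Ccl8, Ccl9 and Ccl12, and in 12.4% of all windows. A loose AP-1-like pattern, TGANTCA with any base at N, occurred once, as TGAATCA, 53 bases before the start of Ccl9. The same pattern was in 6.75% of all windows. A kappaB motif of NF-kB was in 0 of the 6 member windows and in 1.21% of all windows. In Ccl9, TATAAA matches on opposite strands overlapped, beginning 94 and 92 bases before the start. These matches describe letters only.

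Values are FPKM, fragments scaled to exon length and to library size, so levels of different genes can be set side by side per length. Libraries held 9.90e+06 to 3.24e+07 fragments. All 23 libraries of treated mice ran on 1 flow cell, 9 of the 10 vehicle libraries ran on another, and vehicle 5R, the right-flank tumour of vehicle mouse 5, ran with the treated ones. Flow cell and treatment therefore cannot be told apart in comparisons with vehicle. Lane followed treatment as well. ESK981 libraries ran on lanes 3 and 4, and anti-PD-1 libraries on lane 6. Combination libraries ran on lane 5, except combination 1L, which ran on lane 4 with ESK981 libraries. Comparisons among treated groups thus share a flow cell, but lane and treatment cannot be told apart in them. Combination 5R, anti-PD-1 4R and vehicle 5R, called the 3 outlying libraries here, stood apart in depth or ribosomal RNA, and counts are given with and without them. Combination 5R was the only tumour of combination mouse 5, so leaving it out drops that mouse. Of the markers of the tumour line, Krt8 was present, at group means of 18.3 to 26.0 FPKM, whereas Epcam, Krt18 and Cdh1 stayed under 0.4 FPKM on average in each group.

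Ccl8 and Ccl6 were the most abundant members in every group. Together they made up a median 70.4% of the summed FPKM of the 10 genes in ESK981 tumours, 60.6% in combination tumours, 68.2% in anti-PD-1 tumours and 67.8% in vehicle tumours. The sum itself had a median of 43.3 FPKM in ESK981 tumours, 74.4 in combination tumours, 115 in anti-PD-1 tumours and 152 in vehicle tumours. Ccl5 made up a median 5.89% of that sum in ESK981 tumours, against 13.7% in combination, 13.6% in anti-PD-1 and 11.6% in vehicle tumours. Ccl9 made up 7.60% in ESK981 tumours, against 4.57% in combination, 3.58% in anti-PD-1 and 4.10% in vehicle tumours. Ccl22 was the least abundant, at medians of 0.123% to 0.273%. These shares are descriptions of tumours and were not tested.

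**Figure D1:**
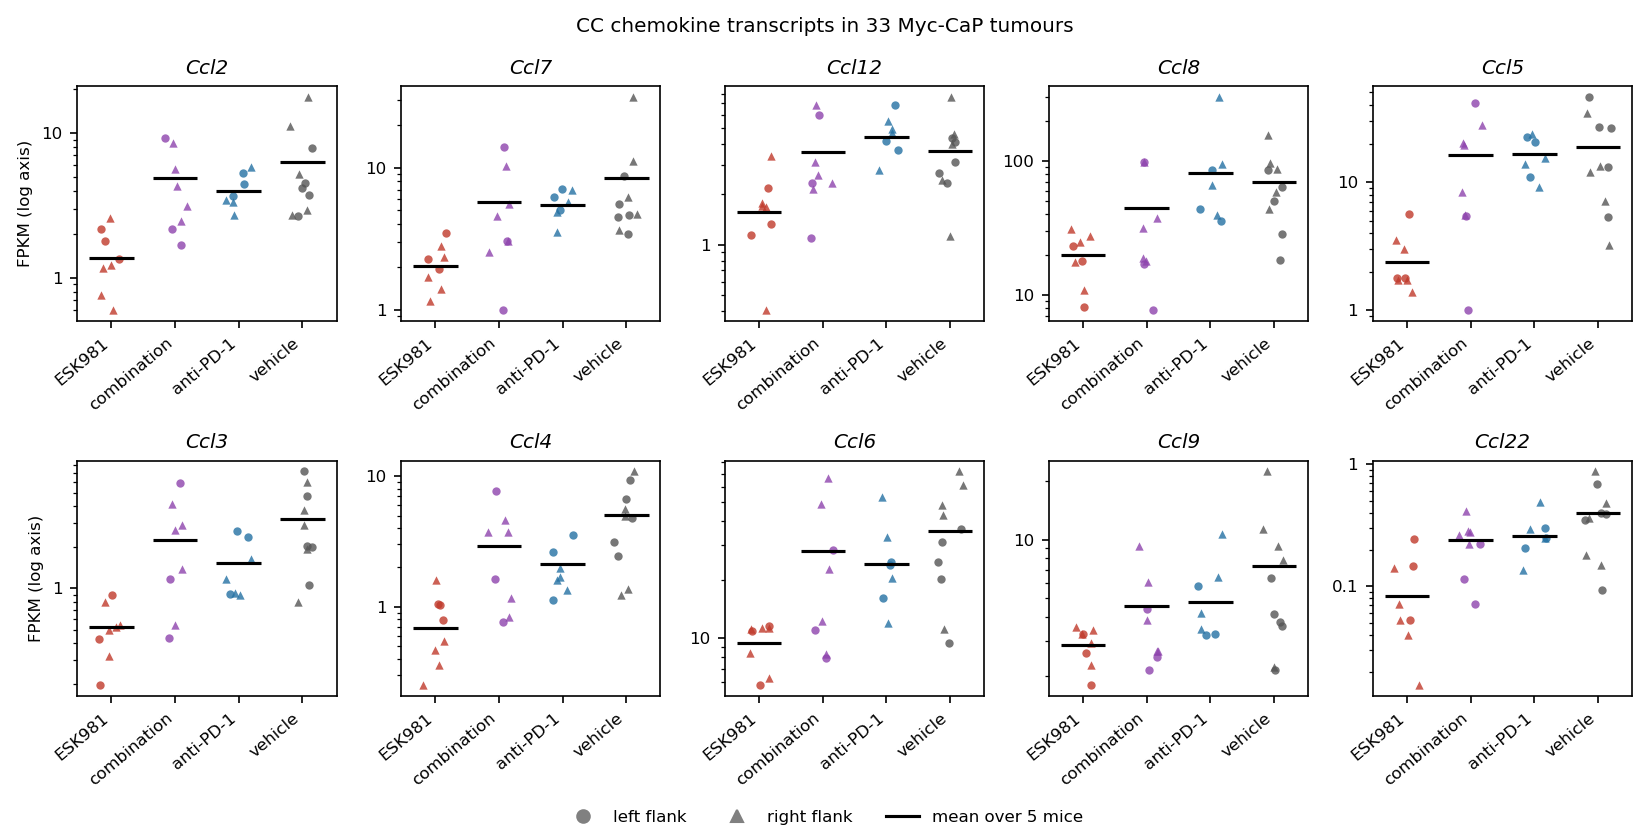
FPKM (log axes) of the 10 genes in each of the 33 tumours, with ESK981, combination, anti-PD-1 and vehicle from left to right; circles are left-flank and triangles right-flank tumours, and bars are means over 5 mice. The ESK981 bar is the lowest of the 4 in each panel, and the combination tumours spread over most of the range of the other groups.

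The CCR2 ligands were lowest under ESK981. Ccl2, the main attractant of inflammatory monocytes, ranged over 0.596 to 2.58 FPKM in ESK981 tumours (median 1.29), 1.69 to 9.30 in combination tumours (median 3.72), 2.72 to 5.82 in anti-PD-1 tumours (median 3.68) and 2.69 to 17.8 in vehicle tumours (median 4.33). All 8 ESK981 tumours lay below all anti-PD-1 and vehicle tumours. Over mice, Ccl2 averaged 1.37 ± 0.514 FPKM under ESK981, 4.88 ± 2.64 under the combination, 4.01 ± 0.619 under anti-PD-1 and 6.28 ± 3.94 under vehicle (SD, n = 5 each).

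Ccl7, a second monocyte attractant next to Ccl2 on the chromosome, ranged over 1.15 to 3.46 FPKM in ESK981 tumours (median 2.10), 0.989 to 14.0 in combination tumours (median 3.81), 3.55 to 7.07 in anti-PD-1 tumours (median 5.78) and 3.39 to 31.6 in vehicle tumours (median 5.13). Single ESK981 tumours overlapped with vehicle at the edge only, and the vehicle maximum came from mouse 2. Its mouse means were 2.02 ± 0.467 FPKM under ESK981, 5.74 ± 3.95 under the combination, 5.50 ± 1.10 under anti-PD-1 and 8.42 ± 6.69 under vehicle (SD, n = 5 each).

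Ccl12, a CCR2 ligand found in mice, ranged over 0.403 to 3.40 FPKM in ESK981 tumours (median 1.68), 1.09 to 6.81 in combination tumours (median 2.46), 2.78 to 6.90 in anti-PD-1 tumours (median 4.65) and 1.13 to 7.69 in vehicle tumours (median 3.56). Tumours of all groups overlapped with those of at least 1 other group, and the lowest vehicle value was that of vehicle 5R. Mouse means were 1.57 ± 0.713 FPKM under ESK981, 3.58 ± 1.98 under the combination, 4.38 ± 1.19 under anti-PD-1 and 3.64 ± 1.39 under vehicle (SD, n = 5 each), so anti-PD-1 stood above vehicle here by less than the spread.

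Ccl8, which in mice recruits cells through CCR8, was the most abundant member. It ranged over 8.15 to 31.2 FPKM in ESK981 tumours (median 20.7), 7.67 to 99.2 in combination tumours (median 25.4), 35.4 to 303 in anti-PD-1 tumours (median 66.2) and 18.2 to 158 in vehicle tumours (median 61.2). All ESK981 tumours lay below all anti-PD-1 tumours, and the 303 FPKM came from the right flank of anti-PD-1 mouse 4. Over mice it averaged 19.8 ± 7.22 FPKM under ESK981, 44.6 ± 36.5 under the combination, 81.2 ± 65.4 under anti-PD-1 and 69.4 ± 25.3 under vehicle (SD, n = 5 each).

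Among the inflammatory chemokines, Ccl5, a product of activated T and NK cells and of macrophages, was low in every ESK981 mouse. The 5 ESK981 mice had 4.32, 1.38, 2.65, 1.73 and 1.76 FPKM. The combination mice had 10.6, 28.0, 30.2, 6.90 and 5.54 FPKM, the anti-PD-1 mice 15.6, 13.8, 17.2, 15.8 and 20.5 FPKM, and the vehicle mice 20.1, 19.96, 29.2, 16.9 and 8.17 FPKM. Every ESK981 mouse lay below every mouse of the other groups. By single tumour the groups touched, since combination 1L held 0.999 FPKM, the lowest of all 33 tumours, beside 20.3 FPKM in the right-flank tumour of the same mouse. Combination 1L ran on lane 4 with ESK981 libraries and that right-flank tumour on lane 5. Lane and flank cannot be told apart in this difference. The anti-PD-1 mice were the closest together, with a coefficient of variation of 15.3%, against 50.2% in ESK981 mice, 73.2% in combination mice and 39.9% in vehicle mice.

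Ccl3 and Ccl4, macrophage inflammatory proteins encoded side by side, were scarce under ESK981. Ccl3 ranged over 0.196 to 0.892 FPKM in ESK981 tumours (4 to 17 fragments), 0.435 to 5.87 in combination tumours, 0.889 to 2.62 in anti-PD-1 tumours and 0.791 to 7.18 in vehicle tumours (6 to 101 fragments). Ccl4 ranged over 0.251 to 1.59 FPKM in ESK981 tumours (4 to 19 fragments), 0.758 to 7.75 in combination tumours, 1.13 to 3.57 in anti-PD-1 tumours and 1.22 to 10.9 in vehicle tumours (8 to 120 fragments). At the mouse level the ESK981 group did not overlap with vehicle or anti-PD-1 for either gene, although single tumours did. Group means of Ccl3 were 0.524 ± 0.108 FPKM under ESK981, 2.26 ± 1.45 under the combination, 1.54 ± 0.598 under anti-PD-1 and 3.24 ± 1.60 under vehicle (SD, n = 5 each). Those of Ccl4 were 0.689 ± 0.396 FPKM under ESK981, 2.91 ± 1.91 under the combination, 2.11 ± 0.852 under anti-PD-1 and 5.06 ± 2.26 under vehicle (SD, n = 5 each).

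The CCR1 ligands Ccl6 and Ccl9, myeloid chemokines of the mouse, differed in how far they separated the groups. Ccl6 ranged over 5.77 to 11.5 FPKM in ESK981 tumours (median 11.1), 7.92 to 66.3 in combination tumours (median 17.5), 12.1 to 53.2 in anti-PD-1 tumours (median 23.9) and 9.47 to 71.8 in vehicle tumours (median 33.7). The ESK981 tumours lay within a narrow band below every anti-PD-1 tumour. Over mice it averaged 9.45 ± 2.53 FPKM under ESK981, 28.0 ± 23.1 under the combination, 24.0 ± 8.54 under anti-PD-1 and 35.7 ± 12.2 under vehicle (SD, n = 5 each). Ccl9 ranged over 1.79 to 3.56 FPKM in ESK981 tumours, 2.14 to 9.28 in combination tumours, 3.22 to 10.6 in anti-PD-1 tumours and 2.13 to 22.4 in vehicle tumours. Its groups overlapped in every pairing. Mouse means were 2.89 ± 0.540 FPKM under ESK981, 4.55 ± 2.78 under the combination, 4.78 ± 1.65 under anti-PD-1 and 7.31 ± 4.25 under vehicle (SD, n = 5 each).

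Ccl22, which attracts regulatory T cells through CCR4 and is made by dendritic cells and macrophages, was scarce. It ranged over 0.0155 to 0.242 FPKM in ESK981 tumours (1 to 14 fragments), 0.0717 to 0.416 in combination tumours, 0.137 to 0.494 in anti-PD-1 tumours and 0.0937 to 0.873 in vehicle tumours (4 to 29 fragments). The ESK981 mice averaged 0.0831 ± 0.0568 FPKM, the combination mice 0.237 ± 0.0615, the anti-PD-1 mice 0.257 ± 0.0791 and the vehicle mice 0.395 ± 0.243 (SD, n = 5 each). It fell below the filter of 0.5 FPKM in at least 5 tumours and was compared by two-sided exact permutation tests over mice, whose smallest possible p is 0.00794. ESK981 was lower than vehicle (exact p = 0.0238) and than anti-PD-1 (exact p = 0.0238), and the combination was higher than ESK981 with no overlap of mice (exact p = 0.00794). Adjusted over the 6 pairwise comparisons of the gene, each of these exact permutation p-values was 0.0476, and the other 3 were 0.298 to 0.675. Fragment counts this low leave a large counting error on single tumours.

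The first comparison asked what ESK981 alone changed. Of the 9 members that passed the filter, 8 were lower than in vehicle tumours in limma on mouse means of log2(FPKM + 0.5), at an adjusted p under 0.05 over 15846 genes. Among all genes tested 5.43% were called lower and 8.95% higher, 14.4% in either direction. The median difference of the 9 members was -1.67 on the log2 scale, against 0.11 over all genes. In bulk tumours, fewer cells that make a chemokine and less of its RNA per cell cannot be told apart.

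Among the CCR2 ligands, Ccl2 fell by 1.68 ± 0.31 on the log2 scale, Ccl7 by 1.53 ± 0.36 and Ccl12 by 1.01 ± 0.31 (SE, limma adjusted p = 0.00343, 0.0103 and 0.0345). Among the inflammatory chemokines, Ccl5 fell by 2.47 ± 0.42, Ccl4 by 2.05 ± 0.35 and Ccl3 by 1.68 ± 0.33 (SE, limma adjusted p = 0.00193, 0.00196 and 0.00418). Ccl8 fell by 1.67 ± 0.46 (SE, 3.18-fold lower, limma adjusted p = 0.0233), and Ccl6 by 1.66 ± 0.40 (SE, 3.15-fold lower, limma adjusted p = 0.0130). Differences between members in the size of the fall were not tested. Ccl9 had a difference of -0.90 ± 0.31 that missed the threshold (limma adjusted p = 0.0521). All 5 ESK981 mice lay below all 5 vehicle mice for 7 of the 9, the exceptions being Ccl9 and Ccl12, and 4.05% of all genes tested had such non-overlap in that direction. Adding 0.5 before taking logs understates the change of low genes such as Ccl3 and Ccl4.

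The weaker calls rested on few mice. The call of Ccl12 was lost when any of vehicle mice 1 to 4 or ESK981 mice 2, 4 or 5 was left out (limma adjusted p of 0.0503 to 0.0982), and that of Ccl8 when vehicle mouse 2 or ESK981 mouse 4 or 5 was (0.0593 to 0.0656). Ccl9 passed without vehicle mouse 4 (limma adjusted p = 0.0218), and also without combination mouse 2, 4 or 5, which enter only through the shared estimate of spread. Without the 3 outlying libraries, 8 members passed, where 4796 genes were called in all, against 2278 with them. In left-flank tumours alone, with 3 ESK981 and 5 vehicle mice, 0 members passed in limma, and in right-flank tumours, with 5 of each, 7 passed. The numbers of all genes called in these single-flank fits are not reported here. These counts are therefore no result about the members or the flank.

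The only vehicle library on the flow cell of the treated tumours, vehicle 5R, gave a mixed picture. This library held the fewest fragments of all, 9.90e+06, and the highest summed FPKM of mitochondrially encoded genes, 90860. Its levels of Ccl3 (0.791 FPKM), Ccl4 (1.22), Ccl5 (3.26) and Ccl12 (1.13) lay within the range of the 8 ESK981 tumours. They rested on 6, 8, 31 and 6 fragments. The levels of the other 6 members in vehicle 5R lay above that range, with 88.2 FPKM of Ccl8 and 48.5 FPKM of Ccl6. With flow cell as a term, which rests on this 1 library, 1 member stayed lower under ESK981 (Ccl6, -2.36, limma adjusted p = 0.0364), Ccl5 had a difference of -0.49 (limma adjusted p = 0.732) and Ccl12 one of 0.26 (limma adjusted p = 0.736). Whether the flow cell had a part in the differences from vehicle cannot be told apart from treatment.

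**Figure D2:**
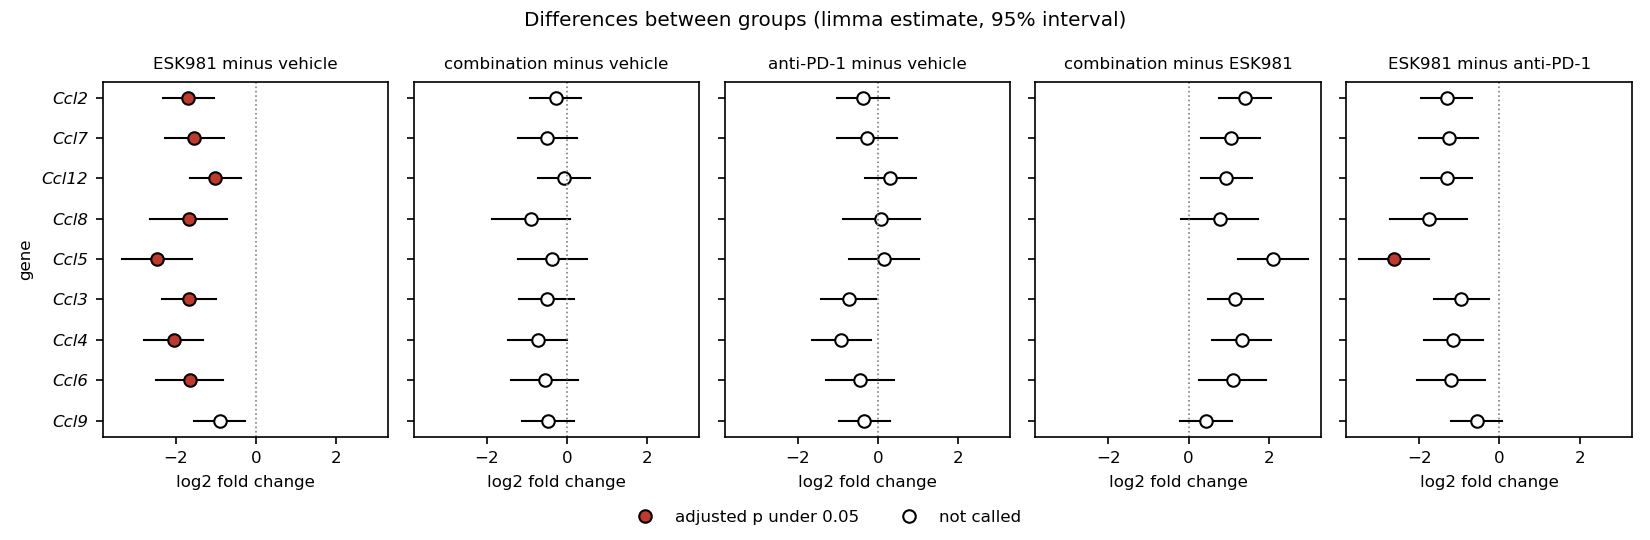
Log2 fold changes (limma estimate with 95% interval) of the 9 members tested in 5 comparisons; filled points passed an adjusted p of 0.05. Against vehicle, 8 of 9 were called under ESK981 and 0 under the combination or anti-PD-1, and Ccl5 was the single call of ESK981 minus anti-PD-1.

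The single agents ran on 1 flow cell but shared no lane. Ccl5 was the single gene of 15846 tested (0.00631%) that passed between ESK981 and anti-PD-1, with a fall of 2.63 ± 0.42 on the log2 scale (SE, 6.17-fold lower, limma adjusted p = 0.0488). All 9 members tested had estimates below 0, with a median of -1.27 against -0.01 over all genes. The other 8 had limma adjusted p-values of 0.0786 (Ccl2 at -1.32 and Ccl12 at -1.32) to 0.419 (Ccl9 at -0.57). All 5 ESK981 mice lay below all 5 anti-PD-1 mice for 8 of the 9, all but Ccl9, beside 5.35% of all genes tested.

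The call of Ccl5 was near its limit. It was lost without any of ESK981 mice 2 to 5, anti-PD-1 mice 1 to 4 or vehicle mouse 1 (limma adjusted p of 0.0598 to 0.207), while the estimate stayed between -2.83 and -2.50 with each mouse left out in turn. Without the 3 outlying libraries, 7 members passed, all but Ccl6 and Ccl9, among 772 genes in all. Without combination mouse 2 the count was 4, among 164 genes in all, and without anti-PD-1 mouse 5 it was 3, among 181.

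Adding the antibody to ESK981 was the next comparison, on 1 flow cell and mostly on different lanes. All 9 members tested had higher estimates in the combination than under ESK981, with a median of 1.10 against -0.09 over all genes, but limma called 0 of the 9 and 0 of all genes (0%), of which 1226 had an unadjusted p under 0.05. Ccl5 differed by 2.11 ± 0.42 (SE, 4.32-fold higher, limma adjusted p = 0.325) and had the smallest unadjusted p of all 15846 genes. Ccl2 differed by 1.41 ± 0.31 (SE, 2.66-fold higher, limma adjusted p = 0.325). For both, all 5 combination mice lay above all 5 ESK981 mice, which held for 0.309% of genes tested. The remaining estimates ran from 0.43 for Ccl9 to 1.32 for Ccl4. Without the 3 outlying libraries, Ccl5 (limma adjusted p = 0.0451) and Ccl3 (limma adjusted p = 0.0490) passed, among 41 genes in all. That setting drops combination mouse 5, the lowest combination mouse for both genes (5.54 FPKM of Ccl5 and 0.539 of Ccl3).

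The combination mice differed among themselves. Mouse 2 was the highest or second highest of the 5 for all 10 members and mouse 3 for 8 of them, while mouse 5 was lowest for 5, mouse 1 for 3 and mouse 4 for 2. The coefficient of variation of Ccl6 was 82.2% in combination mice, against 26.8% in ESK981 mice, 35.6% in anti-PD-1 mice and 34.2% in vehicle mice. For Ccl8 it was 81.7% in combination mice, against 36.5% in ESK981, 80.6% in anti-PD-1 and 36.4% in vehicle mice, where the anti-PD-1 value came with mouse 4 at 195 FPKM.

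Against vehicle, neither the combination nor anti-PD-1 alone had a member that passed. In the combination 0 of 9 were called, beside 0.606% of all genes, with estimates of -0.89 (Ccl8) to -0.07 (Ccl12) and limma adjusted p-values of 0.400 to 0.947. At an unadjusted p under 0.05 the count was 1, Ccl4, with an estimate of -0.73. Under anti-PD-1 0 of 9 were called, beside 0.783% of all genes, with estimates of -0.90 (Ccl4) to 0.31 (Ccl12) and limma adjusted p-values of 0.251 to 0.943. Here Ccl3 and Ccl4 had an unadjusted p under 0.05 in limma (0.0372 and 0.0173). These 3 comparisons share the vehicle mice. For Ccl5 the values side by side were -2.47 under ESK981, -0.36 under the combination and 0.16 under anti-PD-1, with 95% intervals of -3.34 to -1.60, -1.23 to 0.51 and -0.71 to 1.02.

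The combination against anti-PD-1 gave 0 of 9 calls in limma, with 0% of all genes called and 942 genes at an unadjusted p under 0.05. Of the members only Ccl8 was among those, with -0.98 ± 0.46 (SE, limma adjusted p = 0.819). The interaction asked whether ESK981 shifted the members by a different amount with and without the antibody. All 9 estimates were above 0, against a median of -0.22 over all genes, and limma called 0 of the 9 and 0.0252% of all genes. The estimates were largest for Ccl4 (2.23 ± 0.50, SE, limma adjusted p = 0.0857), Ccl5 (1.96 ± 0.59, limma adjusted p = 0.145) and Ccl3 (1.90 ± 0.46, limma adjusted p = 0.0924). At an unadjusted p under 0.05 the 6 members other than Ccl8, Ccl9 and Ccl12 were included, beside 2879 of all genes, 538 of them with estimates above 0. Scaling by the median of ratios, which moved the median of all genes to -0.02, gave 3 calls (Ccl2, Ccl3 and Ccl4) among 60 genes called, and leaving out the 3 outlying libraries gave 4 (Ccl2 to Ccl5) among 725. Vehicle enters the interaction, and its flow cell with it.

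Markers of cells known to make these chemokines were also lower under ESK981 than under vehicle. Of 9 monocyte and macrophage markers tested, 4 were lower under ESK981 than under vehicle, led by Lyz2, a lysozyme of myeloid cells, Cd68 and C1qa. Their summed level ranged over 112 to 207 FPKM in ESK981 tumours, 90.2 to 885 in combination tumours, 282 to 541 in anti-PD-1 tumours and 182 to 929 in vehicle tumours. Ly6c2, a marker of inflammatory monocytes, was near 0, at 0.195 to 0.522 FPKM on average by group. Of 8 T cell markers 6 were lower (Cd4, Cd3g and Cd3e first), with sums of 1.34 to 3.99 FPKM in ESK981, 1.06 to 14.0 in combination, 1.87 to 10.8 in anti-PD-1 and 1.15 to 13.9 in vehicle tumours. Of 4 tested markers of NK and cytotoxic cells, 3 were lower (Prf1, Gzmb and Nkg7), and of 5 fibroblast markers 3 were (Col1a1, Dcn and Col1a2). The summed FPKM of mitochondrially encoded genes ranged over 3991 to 8369 in ESK981, 5022 to 19040 in combination, 7233 to 52730 in anti-PD-1 and 5683 to 90860 in vehicle tumours, with 12 of 13 genes lower under ESK981 than under vehicle. That of ribosomal-RNA-like genes ranged over 15040 to 86390 in ESK981, 19590 to 500400 in combination, 36280 to 179200 in anti-PD-1 and 127100 to 240300 in vehicle tumours. ESK981 and vehicle tumours did not overlap in it, and 3 of 3 such genes were lower under ESK981. Between ESK981 and anti-PD-1, and between the combination and ESK981, limma called 0 of the markers, where it called 1 and 0 genes in all and 2194 and 1226 had an unadjusted p under 0.05. Between ESK981 and anti-PD-1 all 9 macrophage markers tested and all 8 T cell markers had estimates below 0, and for 6 of the 9 and 6 of the 8 all ESK981 mice lay below all anti-PD-1 mice, beside 5.35% of all genes tested. The part of cell numbers, RNA quality or these shifts in the chemokine results was not tested.

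Taken relative to the mean log2 level of the 9 macrophage markers, which itself was 0.90 ± 0.22 lower under ESK981 than under vehicle (SE, 5 mice each), the members had differing values. Ccl5 was still lower by 1.58 ± 0.26, Ccl4 by 1.16 ± 0.29 and Ccl3 by 0.78 ± 0.20, and for these the mice of ESK981 and vehicle did not overlap. The share of all genes with such non-overlap on a relative scale was not worked out, here or in the comparisons that follow. Ccl2, Ccl8, Ccl6 and Ccl7 had relative differences of -0.79, -0.77, -0.76 and -0.64 with overlapping mice. Ccl12 (-0.11 ± 0.21) and Ccl9 (-0.01 ± 0.27) did not differ from the markers by more than the error. Between the combination and ESK981, Ccl5 was higher relative to the markers by 1.63 ± 0.30 and Ccl2 by 0.92 ± 0.25, with mice that did not overlap, while the markers alone differed by 0.49 ± 0.36. Between ESK981 and anti-PD-1 the relative difference of Ccl5 was -1.68 ± 0.27 with no overlap, beside a difference of the markers alone of -0.95 ± 0.18. With overlapping mice, Ccl8 had -0.81 ± 0.33 and Ccl9 0.38 ± 0.12, and the other 6 members ran from -0.37 (Ccl12) to 0.0023 (Ccl3). Relative to 8 T cell markers, Ccl5 was lower by 1.57 ± 0.23 under ESK981 than under vehicle and by 1.88 ± 0.19 than under anti-PD-1, again with no overlap of mice (SE, 5 mice each). The T cell markers alone differed by -0.90 ± 0.17 and -0.74 ± 0.14 in these comparisons. Their levels were low, with a median sum over the 8 of 1.89 FPKM in ESK981 and 7.14 in vehicle tumours. Adding 0.5 before logs understates their fall more than that of Ccl5, which enlarges the relative falls of Ccl5.

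**Figure D3:**
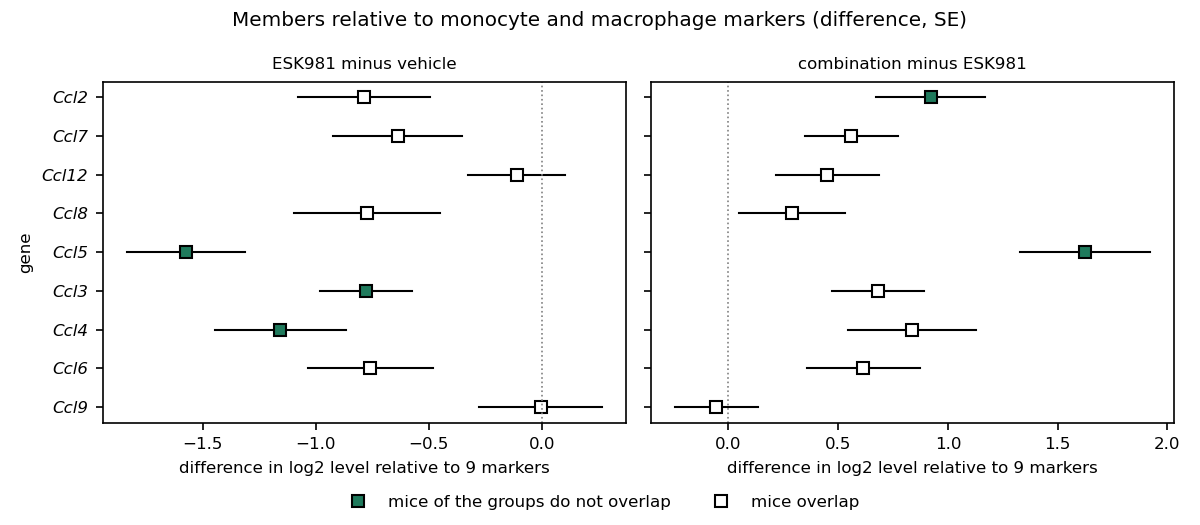
Difference in log2 level of each member relative to the mean of 9 monocyte and macrophage markers (point and SE, 5 mice per group); filled squares mark members whose mice did not overlap. Ccl5 lies farthest from 0 in both panels, at -1.58 and 1.63, and Ccl9 nearest.

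Of 14 CC chemokine receptors, 5 passed the filter, and 1 was called under ESK981 against vehicle. Under ESK981 against vehicle Ccr2, the receptor of Ccl2, Ccl7 and Ccl12, fell by 0.59 ± 0.20 (SE, limma adjusted p = 0.0496), with 0.642 ± 0.184 FPKM in ESK981 mice and 1.29 ± 0.456 in vehicle mice (SD, n = 5 each). Ccr1, the receptor of Ccl6 and Ccl9, had a difference of -0.69 ± 0.28 that missed the threshold (SE, limma adjusted p = 0.0965), and Ccr8 0.10 ± 0.29 (limma adjusted p = 0.839). Differences between a receptor and its ligands were not tested. The uncalled receptors, and the uncalled ligands that follow, fall outside the rule for named genes and were named after their values were seen.

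Of 10 other CC ligands, 7 had a single row and 3 of those passed the filter. Ccl11, eotaxin, an eosinophil attractant, fell by 1.68 ± 0.37 under ESK981 (SE, limma adjusted p = 0.00826), with 0.463 ± 0.213 FPKM in ESK981 mice and 3.24 ± 1.83 in vehicle mice (SD, n = 5 each). Ccl25, known from thymus and gut, had 2.79 ± 0.184 FPKM in ESK981 mice and 2.04 ± 0.680 in vehicle mice, and Ccl28, an epithelial chemokine, 1.25 ± 0.702 FPKM in ESK981 mice and 0.898 ± 0.573 in vehicle mice (SD, n = 5 each). Neither was called (limma adjusted p = 0.129 and 0.568). Of 20 genes that induce CC chemokines, 17 passed the filter, 8 were lower under ESK981 than under vehicle and 0 were higher. Those with the smallest adjusted p were Irf1, an interferon-response factor (-1.54, limma adjusted p = 0.00449), Nfkbia, an NF-kB target and inhibitor (-0.84, 0.00463), Il1b (-1.38, 0.00981) and Csf1, the macrophage growth factor (-0.96, 0.0119). None of the 17 was called between the combination and vehicle, where limma called 96 genes and 1970 had an unadjusted p under 0.05.

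Across the 20 mice, after removal of group means, the highest Pearson's r of log2 levels were 0.92 for Ccl2 and Ccl7, 0.86 for Ccl6 and Ccl9 and 0.85 for Ccl3 and Ccl4, followed by 0.82 for Ccl4 and Ccl5, 0.80 for Ccl3 and Ccl5 and 0.79 for Ccl5 and Ccl7. The first 3 of these pairs are neighbours among the members on the chromosome, but other neighbours were less alike, with 0.78 for Ccl12 and Ccl8, 0.76 for Ccl7 and Ccl12, 0.64 for Ccl6 and Ccl3 and 0.44 for Ccl5 and Ccl9. The lowest were 0.31 for Ccl4 and Ccl8 and 0.34 for Ccl3 and Ccl8. The mice of a group share a treatment and mostly a flow cell, and these values are descriptions with no test.

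**Figure D4:**
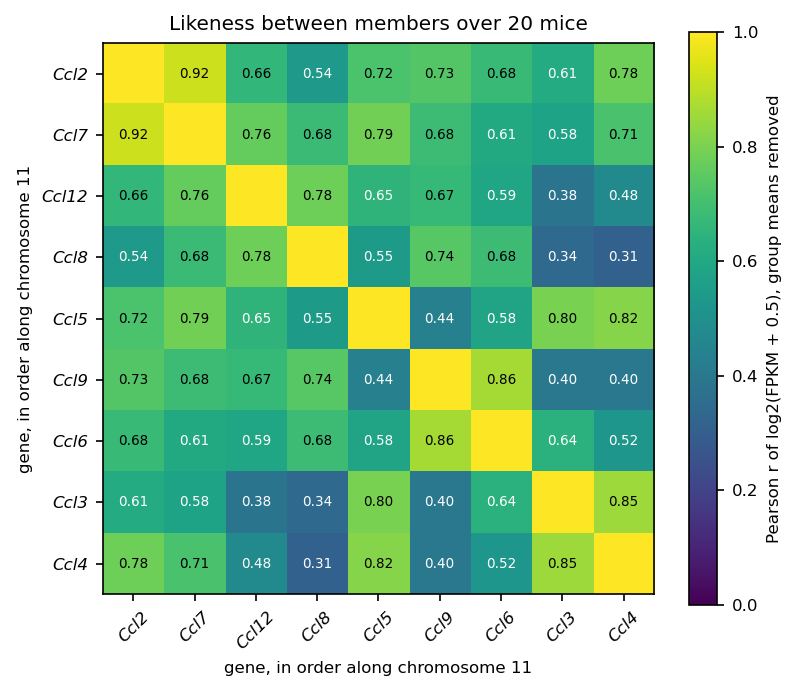
Pearson's r between members over 20 mice (log2 of FPKM + 0.5, group means removed), with genes in order along chromosome 11 on both axes. Ccl2 with Ccl7 is highest at 0.92 and Ccl9 with Ccl6 follows at 0.86, and Ccl8 with Ccl4 is lowest at 0.31.

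The genes most like each member by the same measure over 20 mice differed by member. Ccl5 was most like H2-Q4 (0.95), an MHC class I gene, Ctss (0.94), a cathepsin of antigen-presenting cells, and Cyba (0.94), a subunit of the phagocyte oxidase. Ccl2 was most like Sod3 (0.94), Ccl7 (0.92) and Kcnab2 (0.92), and Ccl7 like Sod3 (0.95), Trim35 (0.92) and Ccl2. Ccl3 was most like Fpr2 (0.95), a formyl peptide receptor of phagocytes, Gngt2 (0.92) and Gbp10 (0.92), and Ccl4 like Apol6 (0.92), the myeloid kinase Fgr (0.92) and Bin2 (0.91). Ccl8 was most like Mrc1 (0.91), the macrophage mannose receptor, C4b (0.88) and Hfe (0.88). Ccl12 was most like C1qc (0.86), C1qa (0.84) and C1qb (0.83), the chains of complement C1q. Ccl6 was most like Wfdc17 (0.92), Mroh1 (0.87) and Ccl9 (0.86), and Ccl9 like Igfbp4 (0.90), Clec10a (0.89), a lectin of macrophages and dendritic cells, and F13a1 (0.87).

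Tumours of the same mouse differed widely. In the 13 mice with both flanks sampled, Ccl5 differed between flanks by a median of 1.08 on the log2 scale, and by 3.79 in combination mouse 1, the largest difference of the 13. The left tumour of that mouse ran on lane 4 and the right tumour on lane 5. Per single tumour, the SD between flanks was 1.21 for Ccl5 and 0.96 for Ccl8. The mouse means within groups had an SD of 0.74 for Ccl5 and 0.82 for Ccl8. Those means average the flanks sampled and still hold flank scatter, so these SDs cannot be compared directly. Ccl8 was higher on the right in 11 of the 13 mice and so was Ccl9, while Ccl5 was higher on the left in 8. Vehicle mouse 1 held 5.36 FPKM of Ccl5 on the left and 34.8 on the right, whereas vehicle mouse 3 held 46.4 on the left and 12.0 on the right. ESK981 mice with both tumours stayed low on both sides, at 1.78 to 5.65 FPKM on the left and 1.72 to 3.51 on the right.

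**Figure D5:**
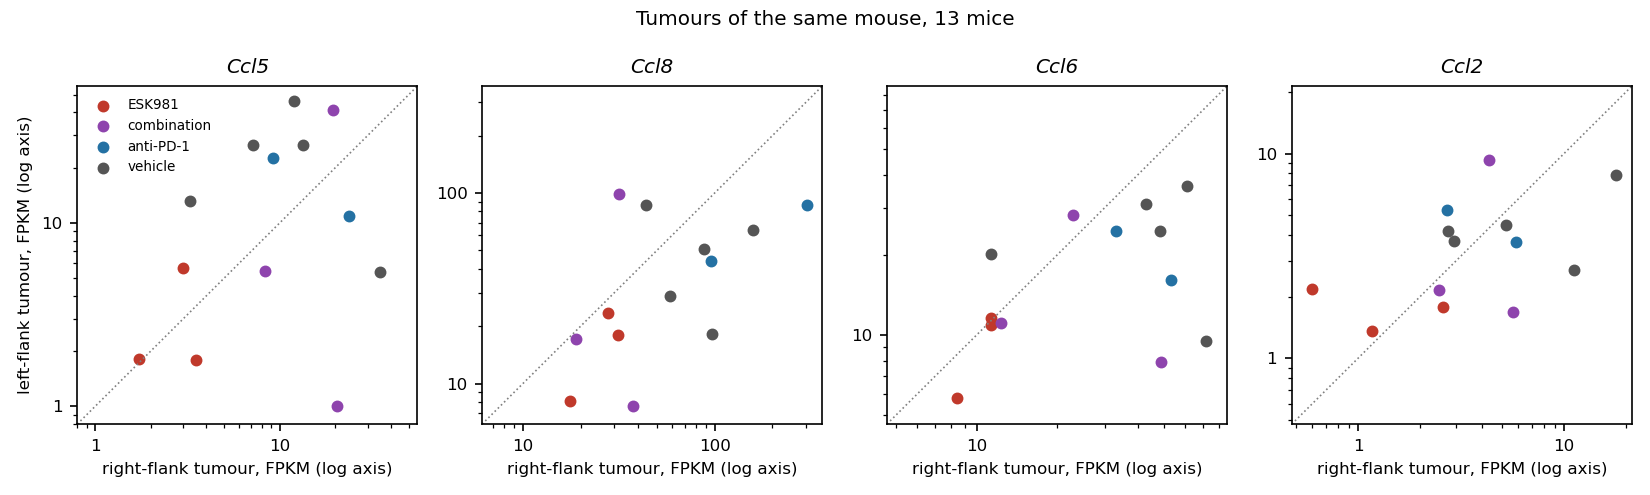
FPKM (log axes) of Ccl5, Ccl8, Ccl6 and Ccl2 in the left-flank tumour against the right-flank tumour of each of 13 mice, coloured by group; the dotted line marks equal values. Most points for Ccl8 lie below the line (11 of 13), and combination mouse 1 lies far from it for Ccl5 (0.999 against 20.3 FPKM).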

How the data were processed

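RNA of 33 tumours was sequenced. Per the submitters' processing notes, the tools were STAR and featureCounts with build mm10, with versions not given in the sources used here. The deposited values are FPKM for 48795 genes, of which 41341 IDs matched GENCODE M21 with their version, the source of gene positions. Values under 50 fragments came out as whole fragments within 0.01 in 100% of cases. A strand setting is not given in the sources used here, so reads of overlapping or antisense genes cannot be told apart. Column names left 0 columns unmatched.

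Tumours of a mouse were averaged on log2(FPKM + 0.5), so that n counts mice. Fold changes on this scale understate the change of low genes. Genes with at least 0.5 FPKM in at least 5 tumours (15846) were fitted with limma 3.58.1 in R 4.3.3, with a mean-variance trend, over all 4 groups (16 residual degrees of freedom), and p-values were adjusted by Benjamini-Hochberg over these genes. The script was tested on simulated data. Libraries held 9.90e+06 to 3.24e+07 fragments, and fragment counts carry counting error. Motifs were searched on both strands of RefSeq windows. Alternatives covered the pseudocount, filter, scaling, variance trend, block, flow cell, flank and left-out libraries or mice.

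All members were named. From the lists of receptors, other ligands, inducers and markers, the called genes with the smallest adjusted p were named, and for likeness the 3 genes with the highest r. The members and lists were chosen with earlier results of these data known. A few genes of these lists are not reported here.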

Additional observations from a re-analysis of the deposited data

Results flagged for a closer look

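In 40 sets of 5 mice (10 genes in 4 groups), 5 had a mouse far from the others. The rule flags about 1 in 20 by chance when values are normally distributed. FPKM need not be so and the members vary together, so an excess over chance cannot be judged from the count. Ccl7 was 20.2 FPKM in vehicle mouse 2, with the nearest vehicle mouse at 7.23, and 3.55 FPKM in anti-PD-1 mouse 2, below the nearest anti-PD-1 mouse at 5.78. Ccl8 was 195 FPKM in anti-PD-1 mouse 4, with the nearest at 69.9. Ccl4 was 3.57 FPKM in anti-PD-1 mouse 5, with the nearest at 1.99. Ccl9 was 9.28 FPKM in combination mouse 2, with the nearest at 4.28.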

How the results depend on the processing

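The number of members called lower under ESK981 than under vehicle was 8, and it was 6 to 9 with each mouse left out in turn. In those fits limma called 1054 to 3782 genes in all. The member count was 0 in left-flank tumours and 1 with flow cell as a term, where 5786 genes were called in all. Between ESK981 and anti-PD-1 the count of 1 became 0 with a pseudocount of 1, without the filter, without the variance trend, over single tumours with the mouse as a block, with flow cell as a term, without ESK981 1R and 2R, and in left-flank or right-flank tumours. It became 3 under median-of-ratios scaling, 7 without the 3 outlying libraries (combination 5R, anti-PD-1 4R and vehicle 5R), and 0 to 4 with each mouse left out. With each mouse left out, 0 to 181 genes were called in all. The interaction count of 0 became 3 under median-of-ratios scaling, 2 when rescaled to the protein-coding sum, 4 without those 3 libraries and 0 to 1 with each mouse left out. The count for the combination against ESK981 became 2 without those libraries. The count for anti-PD-1 against vehicle became 1 with flow cell as a term (Ccl12, 1.56, limma adjusted p = 0.0447). In that fit limma called 4397 genes in all, so the call was not particular to Ccl12. The cause of these changes in count was not tested.

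Signs of log2 differences turned as follows. Under median-of-ratios scaling, Ccl8 was -0.055 for anti-PD-1 minus vehicle and Ccl6 0.00031 for combination minus anti-PD-1. Rescaled to the protein-coding sum, Ccl12 was 0.0034 for combination minus vehicle. With flow cell as a term, Ccl12 was 0.26 for ESK981 minus vehicle. For combination minus vehicle the flow-cell values were 0.31 (Ccl2), 0.77 (Ccl3), 0.63 (Ccl4), 1.51 (Ccl5), 0.11 (Ccl7) and 1.04 (Ccl12). For anti-PD-1 minus vehicle they were 0.29 (Ccl2), 0.47 (Ccl3), 0.39 (Ccl4), 0.42 (Ccl7) and -0.36 (Ccl8), and for the interaction -0.048 (Ccl5) and -0.78 (Ccl12). Without the 3 libraries, Ccl8 was -0.0105 for anti-PD-1 minus vehicle, and Ccl6 0.36 and Ccl9 0.15 for combination minus anti-PD-1. In left-flank tumours, anti-PD-1 minus vehicle was 0.035 (Ccl2), -0.14 (Ccl5), 0.22 (Ccl7) and 0.049 (Ccl9), and combination minus anti-PD-1 was -0.36 (Ccl2) and -0.12 (Ccl3). In right-flank tumours, Ccl5 was 0.37 for combination minus vehicle. With each mouse left out, combination minus vehicle ran over -0.51 to 0.0063 (Ccl2) and -0.32 to 0.10 (Ccl12), and anti-PD-1 minus vehicle over -0.11 to 0.33 (Ccl5), -0.42 to 0.059 (Ccl7) and -0.25 to 0.30 (Ccl8). Combination minus anti-PD-1 ran over -0.14 to 0.28 (Ccl2), -0.028 to 0.50 (Ccl3), -0.092 to 0.36 (Ccl4), -0.54 to 0.19 (Ccl6) and -0.42 to 0.020 (Ccl9).

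No pairing across treatment groups was possible, since mouse numbers were given in order within each group and each mouse belongs to 1 group. Mouse numbers pair only the flanks of a mouse. The limits are 5 mice a group, flanks that differed widely within a mouse, and few fragments for Ccl3, Ccl4, Ccl12 and Ccl22. The flow cell and lanes cannot be told apart from treatment.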
